A study of Sus scrofa with 6 samples.

Results

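The 32 genes described here encode the enzymes that build cholesterol and the proteins that regulate its synthesis, take it up, move it inside the cell and export it. They were chosen by name: 19 enzymes of synthesis and 13 regulators, uptake, transport and export proteins, and oxysterol receptors. Of the 32 symbols, 31 were found among the 29884 genes of the deposited expression table, CYP51 (the older symbol of CYP51A1) included. IDI1, an isomerase of the mevalonate route, was not analysed here, which left 18 enzymes. All 31 genes passed the filter on low values, a mean of at least 0.5 FPKM (fragments scaled to gene length and to the reads of the library) over the 6 libraries, which kept 14567 genes in all.

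RNA was sequenced from cultures of pig (Sus scrofa) testis cells, labelled as primitive spermatogonia, early germ cells of the male line. The RA group (3 libraries) received all-trans-retinoic acid, made from vitamin A and known to start differentiation of spermatogonia, at 2 umol/L. The control group (3 libraries) received 0.1% ethanol. Duration of treatment, any ethanol in the RA group, breed, age, and whether animals or cultures were pooled or separate were not given in the sources used here. For this reason p-values speak only of the spread between libraries, possibly technical.

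Cells build cholesterol from acetyl-CoA by way of mevalonate, farnesyl diphosphate, squalene and lanosterol. SREBP transcription factors switch on the genes of these enzymes when sterols are scarce, while INSIG proteins hold the SREBP escort SCAP in the endoplasmic reticulum when sterols are plentiful. Oxysterols activate the LXR receptors, which switch on genes of cholesterol export. In the testis, cholesterol is the precursor of the steroid hormones, and intermediates between lanosterol and cholesterol, made by CYP51 and the sterol reductases after it, are known as meiosis-activating sterols.

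The read totals behind the values lay between 62084199 and 87520891 per library, and a single member had between 284 (INSIG2) and 75785 recovered reads in a library. RA replicate 2 stood apart: its mean correlation with the other RA libraries across genes was 0.984, against 0.989 and 0.991 for those libraries and 0.994 to 0.995 among the controls. Risen and fallen markers are those called by the limma test given below, which called 12.0% of all genes tested lower and 13.9% higher. All 12 germ cell markers were detected, with a summed level of 262 to 268 FPKM in control and 209 to 219.9 in RA, and 7 of them fell. Of the 7, LIN28A was not called by edgeR (adjusted p = 0.106) or DESeq2 (0.113). ZBTB16, GFRA1 and TDRD6 were not called after a correction for gene length (limma adjusted p = 0.101, 0.0972 and 0.118). The 12 Sertoli cell markers, all detected, summed to 11233 to 11890 FPKM in control and 10632 to 11460 in RA, with 3 risen and 7 fallen. CLU, which did not pass, held most of that sum (a mean of 9242 FPKM in control and 9727 in RA), while VIM fell from 1129 to 598 FPKM and CLDN11 from 944 to 467. The 3 risen were INHBB (14.1 to 31.7 FPKM), DHH (14.4 to 21.3) and INHA (3.19 to 4.71). INHA was not called by edgeR (adjusted p = 0.0597). The 8 peritubular myoid markers summed to 548 to 630 FPKM in control and 1663 to 1970 in RA, with 7 risen and 1 fallen, and the 9 Leydig cell and steroidogenic markers to 254 to 279 and 321 to 361 FPKM, with 2 risen and 3 fallen. The 8 macrophage markers summed to 41.1 to 46.2 FPKM in control and 46.4 to 68.1 in RA, with 3 risen and 0 fallen by limma. For them 0 fell also at an unadjusted p under 0.05, by edgeR and by DESeq2. Of the 3 risen, AIF1 was not called by edgeR (adjusted p = 0.0915) or DESeq2 (0.0732). The 8 endothelial markers summed to 30.1 to 32.1 and 27.3 to 31.98 FPKM, with 1 risen and 2 fallen of 7 tested. The 1 risen, SOX18, was not called by edgeR (adjusted p = 0.0529). By edgeR 0 endothelial markers rose and 3 fell, and by DESeq2 1 rose and 3 fell. The 5 detected haemoglobin and adipocyte markers summed to 0.730 to 1.88 and 1.32 to 1.91 FPKM. None of the detected markers was at 0 in every library. The part of such shifts in the results below was not tested, and in these bulk samples fewer cells of a type cannot be told apart from less RNA per cell.

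Of the 31 cholesterol genes, 15 were called lower in RA, 2 higher and 14 neither. Of the 18 synthesis enzymes, 9 fell and 1 rose, and of the 13 other members 6 fell and 1 rose, by limma on log2(FPKM + 1) with a two-sided Benjamini-Hochberg adjusted p under 0.05 over all 14567 genes. Over all genes tested, the same rule called 12.0% lower and 13.9% higher. The median log2 change was -0.27 for the enzymes and -0.13 for the other members, beside -0.01 for all genes tested, where 51.9% of genes had a change below 0. In 10 enzymes and 7 other members every RA library lay below every control library, which was so in 24.0% of all genes, and in 2 and 2 members every RA library lay above, against 23.9% of all genes. Without RA replicate 2 the enzymes counted 10 lower and 1 higher, and the other members 6 lower and 2 higher. Calls also grew over all 14567 genes, to 2256 lower and 2258 higher, from 1750 and 2019 with all 6 libraries. Log2 changes are on the log2(FPKM + 1) scale here and below, which makes changes of genes at a low FPKM look smaller.

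**Figure D1:**
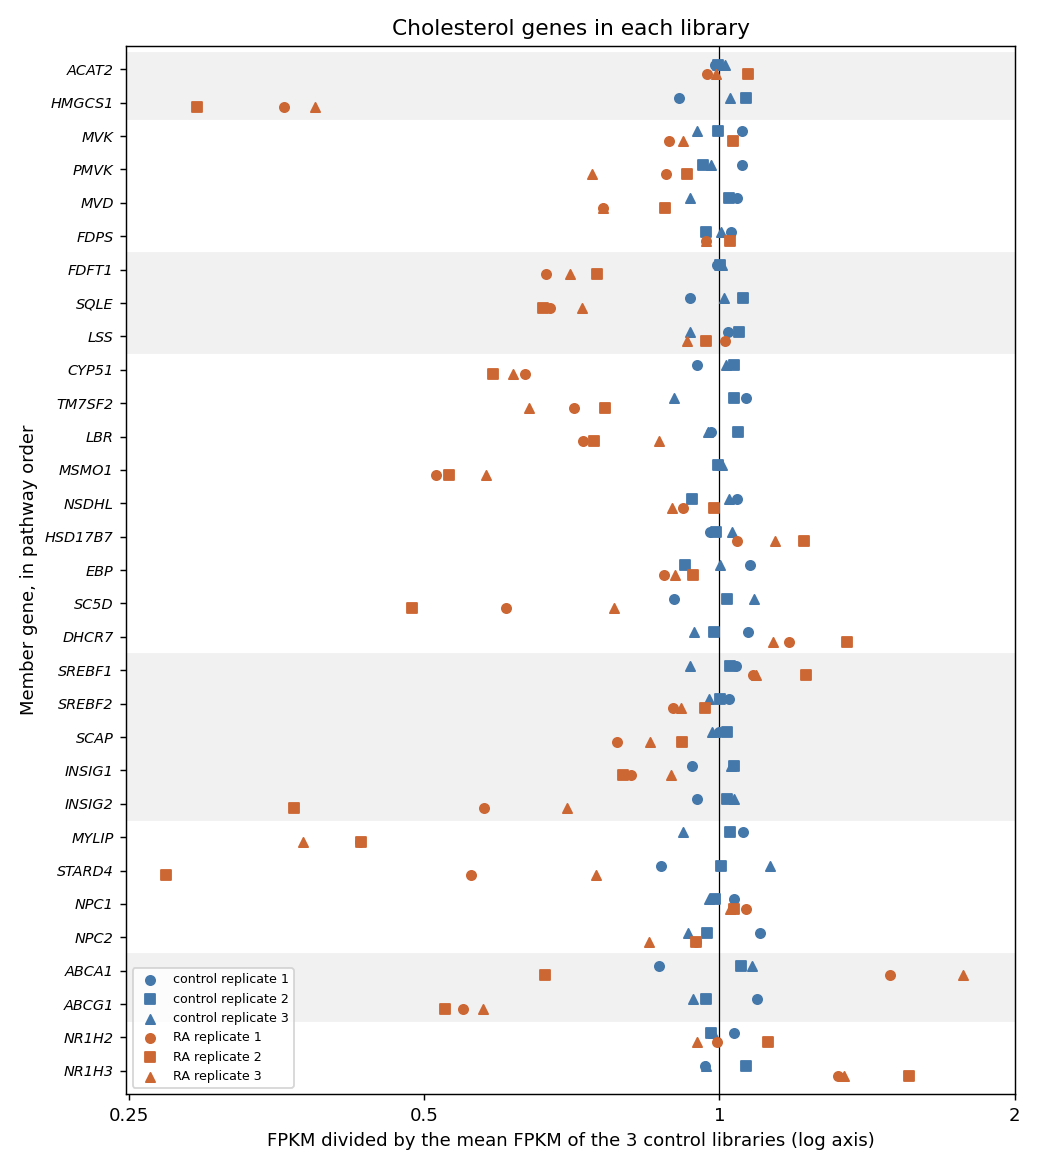
FPKM of each of the 31 genes in each of the 6 libraries, divided by the mean of the 3 control libraries (log axis), in pathway order from synthesis (top) to oxysterol receptors (bottom), with grey bands separating roles. Blue points are control and orange points RA libraries, with 1 shape per replicate number. HMGCS1, MSMO1 and MYLIP lie far left of the controls in all 3 RA libraries, and for ABCA1 RA replicate 2 lies left of the controls while the other RA libraries lie right of them.

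Of the 2 measured genes that open the pathway, HMGCS1 fell and ACAT2 did not pass. HMGCS1, the synthase that makes HMG-CoA, was at 144, 169 and 163 FPKM in control replicates 1, 2 and 3 and at 57.1, 46.5 and 61.4 FPKM in RA replicates 1, 2 and 3. All RA libraries lay below all control libraries, and the mean was 158 ± 12.6 FPKM in control and 55.0 ± 7.64 in RA, or 34.7% of control (± is the SD over n = 3 libraries where it follows a mean level, and the SE where it follows a log2 change). The log2 change was -1.52 ± 0.110 (limma adjusted p = 9.07e-05), the lowest of the 31 members. ACAT2, the cytosolic thiolase that joins acetyl-CoA units one step earlier, ranged from 229 to 234 FPKM in control and from 225 to 247 in RA, with overlapping groups. Its log2 change was 0.02, with a 95% interval from -0.13 to 0.16 (limma adjusted p = 0.869). ACAT2 shares 94 bases with TCP1 on the opposite strand, and whether counting used the strand is unknown here.

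Among the 4 measured genes between mevalonate and farnesyl diphosphate, MVD fell. MVD, the decarboxylase that makes isopentenyl diphosphate, was at 73.0, 71.5 and 65.3 FPKM in control and 53.2, 61.5 and 53.2 in RA (log2 change -0.32 ± 0.0794, limma adjusted p = 0.0229). The RA libraries lay below the controls, but the call was lost without control replicate 1 (limma adjusted p = 0.0831), control replicate 2 (0.0906), RA replicate 1 (0.0791) or RA replicate 3 (0.0573). The kinase PMVK had a log2 change of -0.22 (limma adjusted p = 0.121), with all RA libraries below the controls, and passed without RA replicate 2 (0.0329) and after a correction for gene length (0.0138). MVK, the kinase before it, had a log2 change of -0.08 (95% interval -0.26 to 0.10). FDPS, which makes farnesyl diphosphate, had the highest level of the 18 enzymes, 351 ± 10.01 FPKM in control and 347 ± 11.6 in RA, and a log2 change of -0.02 (95% interval -0.16 to 0.12).

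Both enzymes that make squalene and its epoxide fell. FDFT1, squalene synthase, was at 94.4, 95.01 and 95.4 FPKM in control and 63.3, 71.3 and 66.8 in RA, a log2 change of -0.50 ± 0.0620 (limma adjusted p = 0.00121). SQLE, the squalene epoxidase that acts next, was at 108, 122 and 117 FPKM in control and 77.7, 76.4 and 83.7 in RA, a log2 change of -0.54 ± 0.0693 (limma adjusted p = 0.00139). Neither gene had any overlap between its groups, and RA means were 70.7% and 68.6% of control. LSS, the cyclase that makes lanosterol from the epoxide, averaged 119 ± 7.17 FPKM in control and 116 ± 5.16 in RA, with a log2 change of -0.04 (95% interval -0.20 to 0.11, limma adjusted p = 0.654).

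From lanosterol on, 5 of 9 genes fell and 1 rose. MSMO1, the oxidase that removes methyl groups at carbon 4, was at 84.5, 84.5 and 85.1 FPKM in control and 43.6, 44.9 and 49.0 in RA. The controls lay almost on each other, and the mean fell from 84.7 ± 0.390 to 45.8 ± 2.84 FPKM, a log2 change of -0.87 ± 0.0627 (limma adjusted p = 8.58e-05). CYP51, the demethylase that acts on lanosterol, was at 106, 116 and 114 FPKM in control and 71.0, 65.9 and 69.0 in RA, a log2 change of -0.70 ± 0.0618 (limma adjusted p = 0.000234).

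TM7SF2 and LBR encode reductases of the same reaction, the one after CYP51, and both fell. TM7SF2 was at 215, 209 and 182 FPKM in control and 144, 154 and 129 in RA, a log2 change of -0.50 ± 0.0920 (limma adjusted p = 0.00650). LBR, which is also a protein of the inner nuclear membrane, was at 9.26, 9.87 and 9.20 FPKM in control and 6.85, 7.04 and 8.21 in RA, a log2 change of -0.32 ± 0.0905 (limma adjusted p = 0.0349). Groups did not overlap for either gene. The LBR call was lost without control replicate 1, 2 or 3 (limma adjusted p = 0.0855, 0.129 and 0.0901), without RA replicate 1 (0.110), with no filter on low values (0.0560) and with the replicate number as a block (0.0722). As a level per length, LBR was at 0.0470 ± 0.00379 of TM7SF2 in control and 0.0523 ± 0.00981 in RA, ratios whose groups overlap.

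The last steps moved in both directions. SC5D, the desaturase that makes the substrate of DHCR7, was at 15.6, 17.6 and 18.8 FPKM in control and 10.5, 8.42 and 13.6 in RA, a log2 change of -0.65 ± 0.155 (limma adjusted p = 0.0191). DHCR7, the reductase that follows, was at 71.3, 65.7 and 62.8 FPKM in control and 78.4, 89.7 and 75.6 in RA, a log2 change of 0.28 ± 0.0833 (limma adjusted p = 0.0428). The RA libraries of SC5D lay below and those of DHCR7 above all controls. SC5D was not called without control replicate 2 (limma adjusted p = 0.0751), control replicate 3 (0.0761) or RA replicate 1 (0.0559), or with no filter on low values (0.0524). The rise of DHCR7 was lost without control replicate 1, 2 or 3 (0.0563, 0.132 and 0.144), RA replicate 1 (0.0796), the variance trend (0.0686) or the filter (0.0856), and with the replicate block (0.0608).

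NSDHL, EBP and HSD17B7 did not pass. NSDHL, a dehydrogenase of the demethylation at carbon 4, and EBP, the isomerase before SC5D, had log2 changes of -0.10 (95% interval -0.26 to 0.06) and -0.14 (-0.31 to 0.03). EBP passed after the correction for gene length (limma adjusted p = 0.0213), with quantile normalization (0.0237) and with array weights (0.0306). HSD17B7, the sterol ketone reductase that acts with NSDHL, had a log2 change of 0.17 (limma adjusted p = 0.117), and its RA libraries lay above all controls, at 33.3 to 39.0 FPKM against 31.3 to 33.0. Summed over the 18 enzymes, the level was 1925 to 1965 FPKM in control libraries and 1576 to 1662 in RA libraries.

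**Figure D2:**
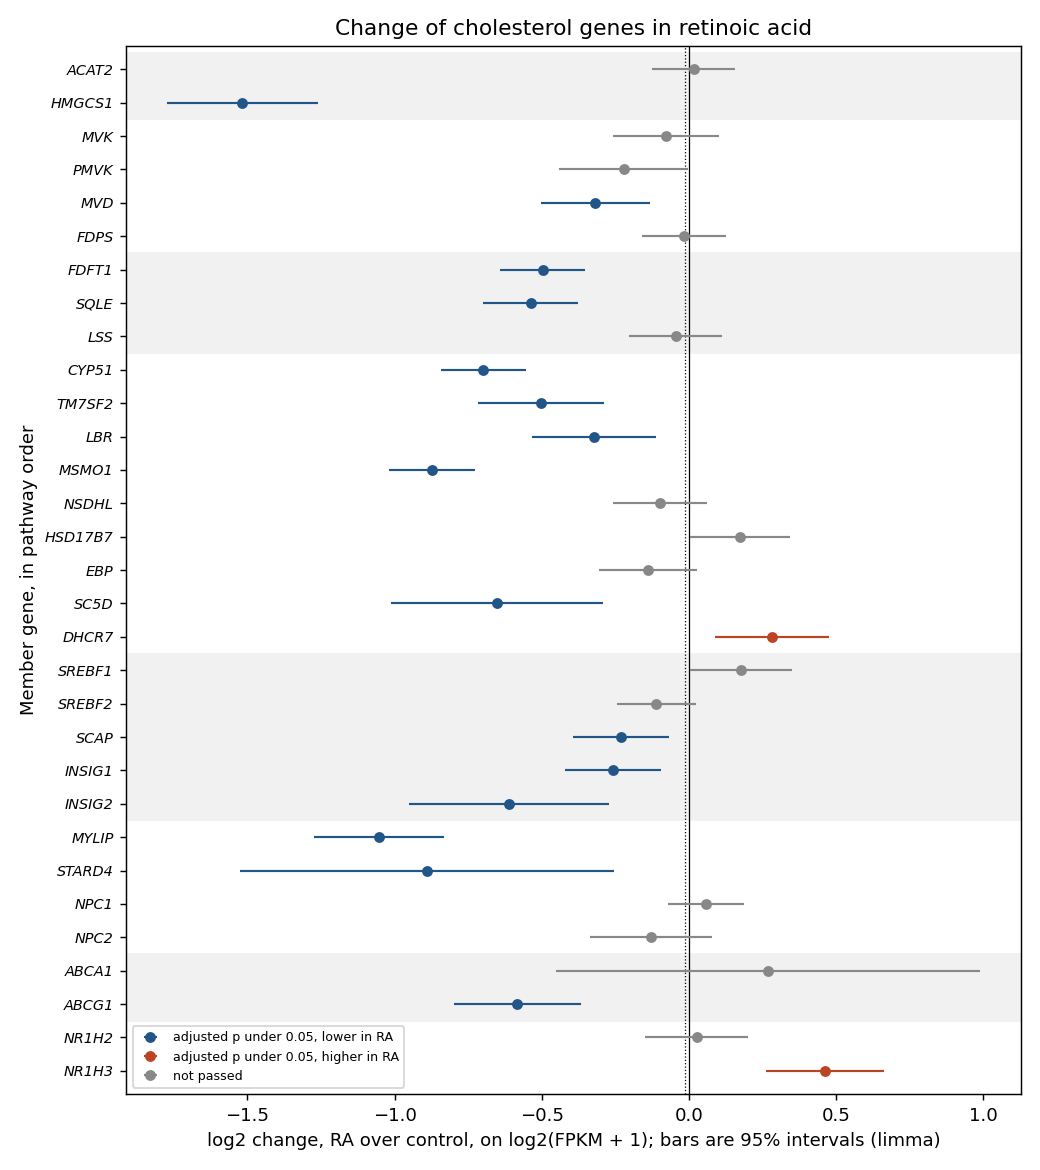
Log2 change of RA over control for each of the 31 genes on the log2(FPKM + 1) scale, with 95% intervals from limma (3 libraries per group) and the genes in pathway order. Blue marks an adjusted p under 0.05 with a fall, red with a rise and grey neither, and the dotted line is the median of all genes tested (-0.01). HMGCS1 at -1.52 and MYLIP at -1.05 lie farthest left, NR1H3 at 0.46 and DHCR7 at 0.28 are the red points, and ABCA1 has the widest interval (-0.45 to 0.99).

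Of the 5 regulators of synthesis, SCAP, INSIG1 and INSIG2 fell, and neither SREBP gene passed the test. SREBF1, whose product favours fatty acid genes, was at 90.4, 89.1 and 81.1 FPKM in control and 93.9, 107 and 94.6 in RA (log2 change 0.18, 95% interval 0.00 to 0.35, limma adjusted p = 0.119). SREBF2, whose product favours cholesterol genes, was at 126, 124 and 121 FPKM in control and 111, 119.6 and 113 in RA (log2 change -0.11, 95% interval -0.24 to 0.02, limma adjusted p = 0.189). All RA libraries lay above the controls for SREBF1 and below them for SREBF2. SREBF2 passed with quantile normalization (limma adjusted p = 0.0238) and with array weights (0.0138), and its log2 change was -0.01 after the correction for gene length. As a level per length, SREBF1 was at 0.702 ± 0.0266 of SREBF2 in control and 0.858 ± 0.0281 in RA, without overlap.

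SCAP, the SREBP escort and sterol sensor, was at 51.2, 52.2 and 50.4 FPKM in control and 40.3, 47.0 and 43.5 in RA, a log2 change of -0.23 ± 0.0698 (limma adjusted p = 0.0455). INSIG1, itself a target of SREBPs, was at 60.1, 66.4 and 65.8 FPKM in control and 52.0, 51.1 and 57.1 in RA, a log2 change of -0.26 ± 0.0704 (limma adjusted p = 0.0320). INSIG2, the other INSIG protein, was at 2.80, 3.01 and 3.06 FPKM in control and 1.70, 1.09 and 2.07 in RA, a log2 change of -0.61 ± 0.146 (limma adjusted p = 0.0194). In these 3 genes the RA libraries lay below all controls, and RA replicate 2 had the lowest level of INSIG2. As a level per length, INSIG2 was at 0.0462 ± 0.000712 of INSIG1 in control and 0.0301 ± 0.00781 in RA, without overlap.

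The calls of these 3 regulators were each lost when certain single libraries were left out. SCAP was not called without control replicate 1, 2 or 3 (limma adjusted p = 0.113, 0.145 and 0.107), without RA replicate 1 or 3 (0.136 and 0.0819), in 4 other settings of limma (0.0749 with no filter, 0.0777 without the variance trend, 0.0708 with the replicate block, 0.138 after the correction for gene length) or by DESeq2 (adjusted p = 0.0507). INSIG1 was not called without control replicate 2 or 3 (0.120 and 0.111), RA replicate 1 (0.0992), the filter (0.0577) or the trend (0.0589), nor with the replicate block (0.0516). INSIG2 was not called without control replicate 1, 2 or 3 (0.0530, 0.0741 and 0.0714) or without the filter (0.0574).

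Of the genes of uptake and intracellular transport, MYLIP had the largest fall. MYLIP, a ubiquitin ligase that sends lipoprotein receptors for degradation and whose gene is known as an LXR target, was at 7.87, 7.63 and 6.85 FPKM in control and 3.20, 3.21 and 2.80 in RA. The groups were far apart, with an RA mean of 41.3% of control and a log2 change of -1.05 ± 0.0955 (limma adjusted p = 0.000262). STARD4, a cytosolic sterol carrier, was at 8.95, 10.3 and 11.6 FPKM in control and 5.73, 2.80 and 7.69 in RA, a log2 change of -0.89 ± 0.274 (limma adjusted p = 0.0487). Its RA libraries lay below the controls but spread widely, and without RA replicate 2 the log2 change was -0.55 (limma adjusted p = 0.0101). STARD4 was not called without control replicate 1, 2 or 3 (0.0893, 0.138 and 0.148) or RA replicate 1 (0.0805), nor by edgeR (adjusted p = 0.0815), nor in 6 of the other limma settings (0.0512 to 0.117).

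NPC1 and NPC2, which together move cholesterol out of lysosomes, did not pass. NPC1 averaged 69.4 ± 2.12 FPKM in control and 72.3 ± 1.42 in RA (log2 change 0.06, 95% interval -0.07 to 0.19). NPC2, a soluble lysosomal protein, had the highest level of the 31 members, 705 ± 63.4 FPKM in control and 644 ± 40.1 in RA (log2 change -0.13, 95% interval -0.34 to 0.08). NPC2 passed as lower with quantile normalization (limma adjusted p = 0.00800) and after the correction for gene length (0.0371).

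The 2 export genes gave different pictures. ABCG1, which passes cholesterol to high-density lipoprotein, was at 3.07, 2.72 and 2.64 FPKM in control and 1.54, 1.48 and 1.61 in RA, without overlap, a log2 change of -0.58 ± 0.0923 (limma adjusted p = 0.00348). ABCA1, which loads cholesterol onto apolipoproteins, was at 13.5, 16.4 and 16.8 FPKM in control and 23.2, 10.3 and 27.6 in RA. RA replicates 1 and 3 lay above and RA replicate 2 below all controls, and the log2 change of 0.27 (95% interval -0.45 to 0.99, limma adjusted p = 0.546) did not pass. Without RA replicate 2 the log2 change was 0.67 (limma adjusted p = 0.00124), and with array weights, which gave that library a weight of 0.169, the adjusted p was 0.00724. The ratio of ABCG1 to ABCA1, as levels per length, was 0.157 to 0.227 in control libraries and 0.0586 to 0.143 in RA libraries, without overlap.

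Of the 2 LXR genes, NR1H3 rose. NR1H3, encoding LXR alpha, was at 13.2, 14.5 and 13.2 FPKM in control and 18.0, 21.3 and 18.3 in RA, without overlap, a log2 change of 0.46 ± 0.0864 (limma adjusted p = 0.00703). NR1H3 overlaps ACP2 on the opposite strand over 2771 bases and MADD on its own strand over 177 bases of the gene spans. ACP2 had a log2 change of 0.07 (limma adjusted p = 0.680) and MADD of -0.69 (0.000547). NR1H2, encoding LXR beta, averaged 45.1 ± 1.33 FPKM in control and 46.1 ± 4.04 in RA (log2 change 0.03, 95% interval -0.15 to 0.20). As a level per length, NR1H3 was at 0.303 ± 0.0232 of NR1H2 in control and 0.417 ± 0.0137 in RA, without overlap.

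The difference between RA replicate 2 and the other RA libraries varied with gene length. ABCA1 has the greatest length of the 31 in the deposited table (10404 bases), and there RA replicate 2 minus the mean of RA replicates 1 and 3 was -1.21 on the log2(FPKM + 1) scale. For STARD4 (5545 bases) the same difference was -1.01, for INSIG2 (3566 bases) and SC5D (2232 bases) -0.46 each, and for HMGCS1 (5157 bases) -0.34. SREBF2, of similar length to STARD4 (5573 bases), had 0.10, and ABCG1 (6454 bases) had -0.06. Across the 31 genes this difference ran against length with a Spearman's rho of -0.418, and across all 14567 genes with -0.474, both within the same 3 libraries and given as a description. Between the log2 change itself and length rho was -0.154 over the 31 genes and -0.32 over all genes. After a lowess correction of each library for gene length, 11 enzymes fell and 1 rose and 6 other members fell and 1 rose, where 12.8% of all genes were called lower and 14.8% higher.

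**Figure D3:**
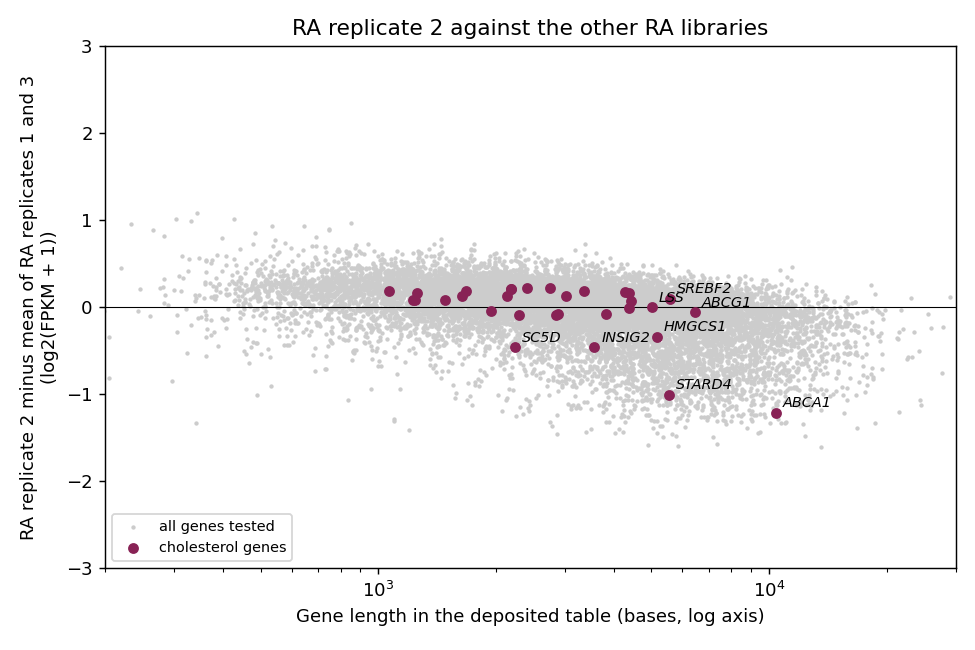
Difference between RA replicate 2 and the mean of RA replicates 1 and 3 on the log2(FPKM + 1) scale against gene length in bases (log axis). Each grey point is 1 of the 14567 genes tested and each purple point 1 of the 31 cholesterol genes. ABCA1 (-1.21) and STARD4 (-1.01) lie lowest among the purple points, while SREBF2 and LSS of similar length to STARD4 lie at 0.10 and 0.00.

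The authors' deposited tables of called genes list 14 of the 31 members. They hold 14.6% of all 29884 genes, but that share also counts genes below the filter on low values, which all 31 members passed. The 2 shares are therefore not over like sets of genes. In the authors' deposited table the log2 fold changes were -1.50 for HMGCS1, -0.86 for MSMO1, -0.68 for CYP51, -1.25 for MYLIP and 0.52 for NR1H3. The authors' deposited table does not list MVD, SCAP and INSIG1, which limma called lower here. edgeR on the recovered reads called 9 enzymes lower and 1 higher and 5 other members lower and 1 higher, where 11.6% of all genes were called lower and 13.5% higher.

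Neighbouring pathways were read from 5 further lists, whose counts stand beside 12.0% of all genes called lower and 13.9% called higher. Of 13 measured genes of fatty acid synthesis, known as targets of SREBP1, 7 fell and 2 rose, with a median log2 change of -0.29. FASN, the fatty acid synthase, was at 526, 515 and 455 FPKM in control and 274, 293 and 279 in RA, a log2 change of -0.82 ± 0.0759 (limma adjusted p = 0.000289). The phosphatidate phosphatase LPIN1 (log2 change -0.65, limma adjusted p = 0.000556) and ACLY, which makes cytosolic acetyl-CoA (-0.35, 0.00379), also fell. ELOVL5, an elongase of polyunsaturated fatty acids, rose from 38.5 ± 1.27 FPKM in control to 69.3 ± 4.24 in RA (log2 change 0.83, limma adjusted p = 0.000145).

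Of 16 genes of sterol transfer and lipoprotein uptake, 6 fell and 2 rose, with a median log2 change of -0.06. VLDLR and LRP8, receptors of the lipoprotein receptor family and known substrates of the MYLIP ligase, both fell. VLDLR was at 59.4, 61.5 and 60.4 FPKM in control and 30.6, 27.9 and 29.8 in RA (log2 change -1.01, limma adjusted p = 3.86e-05), and LRP8 at 34.7, 38.9 and 31.9 FPKM in control and 12.5, 11.4 and 12.6 in RA (-1.46, 3.94e-05). OSBPL9, of the oxysterol-binding protein family, fell from 155 ± 9.58 FPKM in control to 43.9 ± 9.42 in RA (log2 change -1.82, limma adjusted p = 0.000163) and the caveolin CAV1 from 48.5 ± 1.93 to 15.6 ± 2.16 (-1.58, 5.03e-05). Of the 2 risen genes LRPAP1, a chaperone of lipoprotein receptors named after its values were seen, had a log2 change of 0.29 (limma adjusted p = 0.0400). Its call was lost without control replicate 1, 2 or 3 (0.101, 0.106 and 0.126), with no filter (0.0856), quantile normalization (0.0530), no trend (0.0608) or the replicate block (0.0554), and after correction for length (0.0526).

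Of 11 measured genes of oxysterol synthesis, LXR targets and receptors that pair with LXR, 5 rose and 0 fell by limma (0 fell also at an unadjusted p under 0.05, by edgeR and by DESeq2), with a median log2 change of 0.32. CYP27A1 and CH25H, which hydroxylate cholesterol to oxysterols, rose from 8.89 ± 1.06 FPKM in control to 18.3 ± 1.62 in RA and from 1.58 ± 0.125 FPKM to 3.52 ± 0.439 (limma adjusted p = 0.000578 and 0.00154). The LXR target LPCAT3, a phospholipid acyltransferase, rose by a log2 change of 0.52 (limma adjusted p = 0.00355), and of the LXR targets among the members ABCG1 and MYLIP fell, while ABCA1 (log2 change 0.27) and SREBF1 (0.18) did not pass. RXRB, a receptor that pairs with LXR, is 1 of the 5 genes called (log2 change 0.32, limma adjusted p = 0.0473). It was named after its values were seen, and its call was lost in all 6 omissions of a library (0.0519 to 0.154), with no filter (0.0851) and without the trend (0.0544).

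Of 12 genes of the other isoprenoid branches and of protein prenylation, 4 rose and 0 fell by limma (1 fell at an unadjusted p under 0.05, and 0 by edgeR and by DESeq2), with a median log2 change of 0.18. DHDDS, a subunit of the dolichol-forming enzyme, rose from 16.0 ± 1.27 FPKM in control to 23.3 ± 1.63 in RA (limma adjusted p = 0.00401), and COQ2, a transferase of ubiquinone synthesis, from 10.1 ± 0.617 to 13.9 ± 0.954 (0.00810). PDSS1 (log2 change 0.41) and the farnesyltransferase subunit FNTB (0.31) rose with limma adjusted p-values of 0.0189 and 0.0361. PDSS1 was not called without control replicate 1 (0.0683), control replicate 2 (0.0810) or RA replicate 3 (0.0506), or after the correction for gene length (0.0571). FNTB was called only in the absence of RA replicate 2 among the 6 omissions of a library (0.0534 to 0.123 in the others), and not with no filter (0.0567) or with the replicate block (0.0587).

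Of 9 measured genes of SREBP processing and sterol sensing, 2 fell and 1 rose, with a median log2 change of -0.13. TMEM97, a sterol-responsive membrane protein that binds NPC1, fell from 70.3 ± 3.53 FPKM in control to 46.5 ± 4.25 in RA (log2 change -0.59, limma adjusted p = 0.00177). The ubiquitin ligase RNF145 fell by 0.43 on the log2 scale (limma adjusted p = 0.0124, and 0.0615 without control replicate 2 and 0.0567 without control replicate 3). MBTPS1, the protease that first cuts SREBPs, rose from 34.2 ± 1.18 FPKM in control to 40.1 ± 0.756 in RA (limma adjusted p = 0.0266), a call held only in the absence of RA replicate 2 among the 6 omissions of a library (0.0631 to 0.0924 in the others) and lost with quantile normalization (0.0539), the replicate block (0.0595) and no trend (0.0557).

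**Figure D4:**
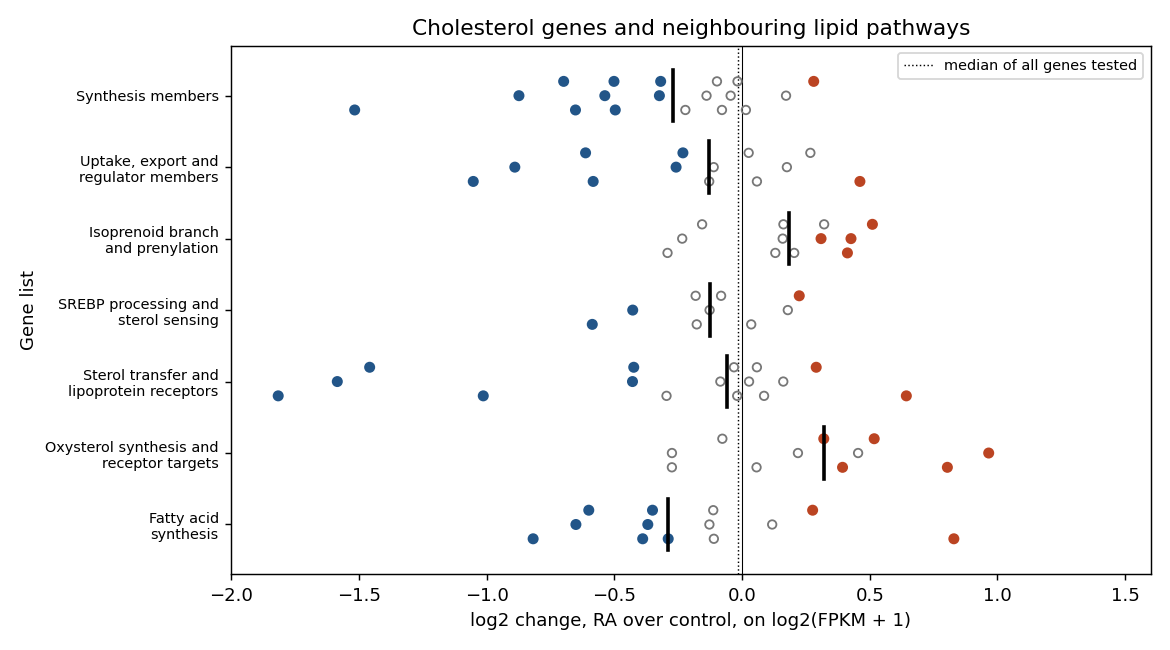
Log2 change of RA over control, on the log2(FPKM + 1) scale, of each gene in the 2 classes of members and 5 neighbouring lists. Filled points passed limma's adjusted p under 0.05 (blue lower, red higher), open points did not, black bars are list medians, and the dotted line is the median of all genes tested (-0.01). The median was -0.27 for the synthesis members, -0.29 for the fatty acid list and 0.32 for the oxysterol list, and no test was made of these medians.

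In the coordinates of the deposited table, of a build that no source used here names, HMGCS1 lies on chromosome 16, 27936225 to 27957261, minus strand, and MSMO1 on chromosome 8, 43726834 to 43745784, minus strand. CYP51 lies on chromosome 9, 72057506 to 72079587, minus strand, MYLIP on chromosome 7, 12117240 to 12137934, plus strand, and NR1H3 on chromosome 2, 15315283 to 15336785, minus strand. FDPS and PMVK both lie on chromosome 4, at 94500140 to 94514820 and 94861500 to 94913743, and LSS on an unplaced scaffold.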

How the data were processed

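Libraries were grouped by title and treatment label. The authors deposited FPKM values for 29884 genes with lengths and coordinates, and, for the 4377 genes they called, counts, a log2 fold change, a p-value and its FDR, per the file headers. Their aligner, counter, strand setting, build and test were not given in the sources used here. Multiplied by length and a library total, FPKM came out as whole reads (tolerance 0.05) in 99.8% to 99.9% of non-zero values per library, and 42 genes not whole in every library were left out of count tests. No replicate was a copy of another (mean chi-square per gene 14.6 to 97.3).

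The test was limma 3.58.1 (R 4.3.3) on log2(FPKM + 1) with a variance trend, group as the only term and Benjamini-Hochberg adjustment over 14567 genes averaging at least 0.5 FPKM. An exact permutation test, whose smallest p here is 0.1, was not run. Alternatives were pseudocounts of 0.1 and 0.5, no filter, a filter of 1 FPKM, median-ratio scaling, quantile normalization, no trend, robust moderation, array weights, a replicate block, omission of each library, edgeR 4.0.16 and DESeq2 1.42.0 on recovered reads, and a lowess correction for length (span 0.3). The estimate of array weights stopped before it reached its convergence tolerance, so values under that setting are approximate.

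The members, lists and tests were chosen with earlier results of these data known. Values in every library are given for members with an adjusted p under 0.05 and for SREBF1, SREBF2, INSIG1, INSIG2, ABCA1 and ABCG1, and up to 4 genes of smallest p are named per neighbouring list. No sequence is shown, and promoter motifs were not analysed here. Of 65 genes in the neighbouring lists, 63 were matched, and ERLIN1 and SPRING1 were not analysed here.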

Additional observations from a re-analysis of the deposited data

How the results depend on the processing

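Each result was recomputed under 19 alternatives. HMGCS1, FDFT1, SQLE, CYP51, TM7SF2, MSMO1, MYLIP and ABCG1 stayed lower and NR1H3 higher, past the threshold, in all 19. Over the 31 members, 523 of the recomputed changes kept direction and side of the threshold or stayed uncalled, 52 lost a call and 14 gained a call. No called change reversed. The 9 enzymes called lower became 7 with no filter and 12 with array weights, and 6 to 10 when a library was left out. The 1 enzyme called higher, DHCR7, became 0 with no filter, without the trend and with the replicate block (limma; 2, 1 and 1 enzymes were higher at an unadjusted p under 0.05, and edgeR and DESeq2 called 1 each), and 0 to 1 when a library was left out. The 6 other members called lower became 2 with no filter and 3 without the trend, and 2 to 6 when a library was left out. The 1 called higher became 2 with array weights, and 1 to 2 when a library was left out. Over all genes, 2019 were higher and 1750 lower, against 3410 and 3621 with array weights. Leaving out a library gave 1202 to 2258 higher and 1005 to 2256 lower genes.

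No pairing by replicate number was seen: same-numbered libraries correlated in their deviations from group means at -0.214, -0.0864 and 0.34 (across genes). Control replicate 1 correlated best with RA replicate 2 (0.371). With 3 libraries per group and RA replicate 2 set apart, these values cannot tell whether same-numbered libraries were made together. With the replicate block, 1610 genes were higher and 1405 lower, and 8 enzymes and 4 other members were lower. INSIG2, with 284 reads in RA replicate 2, is the member that depth limits most, and the cause of the lost calls was not tested.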

Other observations

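Further genes of the neighbouring lists passed the limma test and are named after their values were seen. In fatty acid synthesis, ELOVL6 (log2 change -0.60, adjusted p = 0.00387), ME1 (-0.37, 0.00496), ACSS2 (-0.39, 0.00531) and the desaturase SCD (-0.29, 0.0122) were lower, and the desaturase FADS1 (0.28, 0.0120) was higher. SCD lost its call without control replicate 2 (adjusted p = 0.0588) and without RA replicate 1 (0.0529), and FADS1 without control replicate 1 (0.0526), without control replicate 3 (0.0509) and in the fit corrected for length (0.0625). LIPA, the lysosomal acid lipase that frees cholesterol from its esters, rose from 58.2 ± 4.12 FPKM in control to 91.4 ± 1.30 in RA (SD, n = 3 libraries, limma adjusted p = 0.000474). NCEH1, a hydrolase of cholesterol esters outside lysosomes, fell from 7.01 ± 0.857 FPKM in control to 4.95 ± 0.183 in RA (limma adjusted p = 0.0209), and was not called without control replicate 2 (0.0888), control replicate 3 (0.0825) or RA replicate 1 (0.0689). The sterol transfer gene GRAMD1A fell from 31.1 ± 0.699 FPKM in control to 22.9 ± 2.47 in RA (limma adjusted p = 0.00894).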
